A study of Mus musculus with 19 samples.

Results

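Apolipoprotein E and the genes of cholesterol efflux were examined as a set of 10 genes in retinal microglia, namely *Apoe*, *Abca1*, *Abcg1*, *Nr1h2*, *Nr1h3*, *Soat1*, *Lrp1*, *Apobec1*, *Scarb1* and *Plin2*. The genes were chosen by name, with earlier results of these data known, and all 10 were present among the 27299 genes of the expression table. Microglia of 6 samples taken on the third day after laser treatment of the retina (CNV d3), a model in which vessels grow from the choroid into the retina, were compared with microglia of 6 unlasered control samples by bulk RNA-seq. Mice of both groups were 8 weeks old, and the only difference that the labels and methods name for them is the laser treatment. The labels list every control sample in parts, but of the CNV d3 samples only replicate 4, and the effect of this was not tested. The labels give the strain as C57BL/6J, whereas the methods of the study name *Cx3cr1* GFP/+ mice on that background, in which 1 allele of the fractalkine receptor gene is replaced by a fluorescent reporter in both groups. Cells were sorted as CD11b+ CX3CR1+ Ly6C- Ly6G-, with CD45 given as positive in the labels and as low in the methods. How many mice contributed to a sample is not given in the sources used here, so that p-values measure the spread between samples, which may be technical in part.

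Apolipoprotein E is the main lipoprotein component that glia secrete in the nervous system, where it carries cholesterol and phospholipids between cells. The transporters ABCA1 and ABCG1 move cholesterol out of the cell onto such particles, and their genes as well as *Apoe* itself are classical targets of the liver X receptors, nuclear receptors that are activated by oxysterols. Cholesterol that stays in the cell can be esterified by SOAT1 and stored in lipid droplets, which are coated by perilipin 2, whereas LRP1 and SR-BI, the product of *Scarb1*, take up lipoproteins or their lipids.

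The reads on genes numbered 10963178 to 22335233 per control sample and 23532260 to 29523018 per CNV d3 sample. Values are normalized counts, that is, reads divided by a size factor for the depth of each sample. Of the markers of microglia reported here, 6 were lower in CNV d3 (*P2ry12*, *Tmem119*, *Cx3cr1*, *Sall1*, *Siglech* and *Gpr34*), and *Olfml3* (log2 fold change of -0.05, adjusted p in limma = 0.637), *Fcrls* (-0.33, adjusted p = 0.401) and *Csf1r* (-0.20, adjusted p = 0.157) did not pass. For this and the other marker counts below, the background is all genes, of which 8.29% were higher and 4.57% lower in CNV d3 at an adjusted p under 0.05. *P2ry12*, a purinergic receptor gene, was at 157959 to 214665 normalized counts in control and 44022 to 81084 in CNV d3 (log2 fold change of -1.65, adjusted p in limma = 1.01e-05), and *Tmem119* was at 99098 to 114465 and 38810 to 72446 (-1.06, adjusted p in limma = 0.000136). Markers of monocytes moved with the groups, as the sum of 10 such genes was 251 to 422 in control and 4295 to 50640 in CNV d3, with 5 of the 10 higher. In CNV d3 most of the sum was due to *Fn1*, which had at most 69.3 normalized counts in control. *Ly6c2*, which encodes a form of the Ly6C protein used to exclude monocytes, had 0 reads in all control samples and 1.73 to 25.1 normalized counts in CNV d3. The sums of Mueller glia and astrocyte markers (7737 to 10515 in control, 7484 to 9193 in CNV d3), photoreceptor markers (831 to 7595 and 634 to 13440) and border macrophage markers (407 to 2613 and 713 to 1186) overlapped between the groups. Of the 10 Mueller glia and astrocyte markers, cells that also express *Apoe*, 3 were higher in CNV d3, *Dbi* (1.03, adjusted p in limma = 0.00213), *Aldh1l1* (5.19, 0.00599) and *Dkk3* (3.81, 0.0108), and *Slc1a3* was lower (-0.67, 0.0208). *Aldh1l1* had 0 reads in 5 controls and 86.1 normalized counts in control replicate 2, against 21.6 to 209 in CNV d3. *Dkk3* had 0 reads in 4 controls and at most 9.13 normalized counts in control, against 10.8 to 106 in CNV d3. The size of both estimates rests on these controls at 0. The part of such cells in the results was not tested. In addition, reads of the Y-linked gene *Ddx3y* were found only in CNV d3 replicates 4 to 6 (1239 to 1450 normalized counts), while all controls and CNV d3 replicates 1 to 3 had 0, so that a difference due to sex cannot be told apart from that due to treatment in replicates 4 to 6. In bulk samples, fewer cells of a type and less RNA per cell cannot be told apart.

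Of the 10 genes, 7 were significantly increased in CNV d3 at an adjusted p under 0.05 (limma on log2(normalized counts + 1), Benjamini-Hochberg over all 27299 genes) and 0 were decreased, against 8.29% of all genes increased and 4.57% decreased. Among the genes called, the share of increased genes was 64.5% here and 53.5% with DESeq2 on the recovered reads. The increased genes were *Apoe*, *Abca1*, *Abcg1*, *Nr1h3*, *Lrp1*, *Apobec1* and *Plin2*, while *Nr1h2*, *Soat1* and *Scarb1* did not pass. Because 9 of the 10 genes had a mean of at least 500 normalized counts, a closer background is the 6202 genes at that level, of which 18.6% were increased and 12.7% decreased. The median log2 fold change (log2FC) was 0.79 for the 10 genes, 0.15 over all genes and 0.06 over the genes with a mean of at least 500. With the log2FC cutoff of the study, above 1.5, added to the limma test, 3 of the 10 genes were differentially expressed genes (DEG). These were *Apoe*, *Abcg1* and *Nr1h3*, against 3.91% of all genes. The study tested with DESeq2 instead, and DESeq2 on the recovered reads gave 2 DEG in the set, without *Nr1h3* (log2FC = 1.34, padj = 0.422). In 4 genes, *Apoe*, *Abca1*, *Abcg1* and *Apobec1*, every CNV d3 sample lay above every control sample, which was so for 4.64% of all genes and for 11.5% of the genes with a mean of at least 500, and in 0 genes of the set every CNV d3 sample lay below every control (2.83% of all genes).

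**Figure D1:**
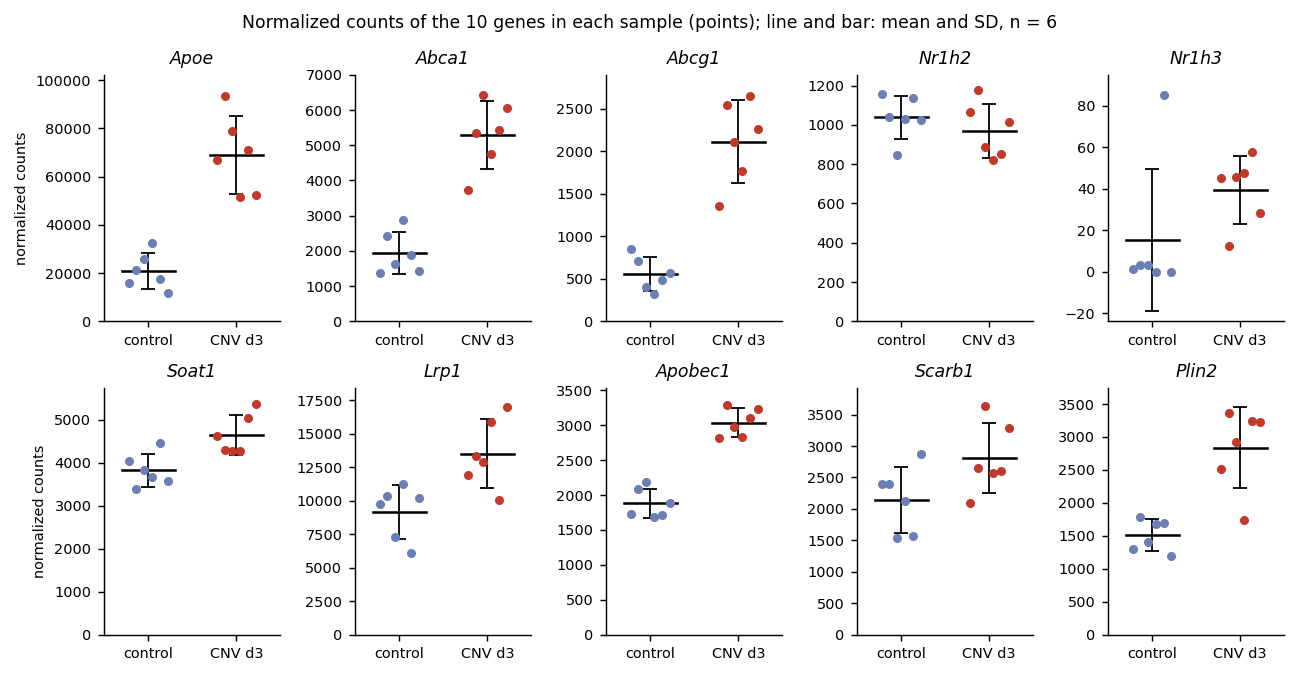
Normalized counts (linear y axes, 1 panel per gene) of the 10 genes in the 6 control and 6 CNV d3 samples, with points for samples and lines with bars for mean and SD. The groups did not overlap for Apoe, Abca1, Abcg1 and Apobec1, and the control group of Nr1h3 held a single sample at 85.3.

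*Apoe*, the gene for the secreted lipid carrier, is on chromosome 7 (GRCm38, as for all coordinates here, positions 19696109 to 19699188, minus strand). Reads over all annotated exons of a gene, untranslated regions included, were counted, and exons of other genes overlapped those of *Nr1h3* alone. The level of *Apoe* in control was 11838 normalized counts at the lowest, 19468 at the median and 32299 at the highest, and in CNV d3 it was 51437, 68896 and 93325. The lowest CNV d3 sample was therefore above the highest control sample. The increase amounted to log2FC = 1.77 (SE 0.21, 95% interval 1.32 to 2.22, padj = 9.45e-05), or 3.41-fold. In an exact permutation test over all 924 labellings, p was 0.00216, the smallest possible value. Reads of *Apoe* made up 0.0544% to 0.148% of all reads on genes in control and 0.241% to 0.434% in CNV d3. Per kilobase of exon, *Apoe* was the highest of the 10 genes in both groups, and its place among 27238 annotated genes moved from 70 to 21. Within the groups, the coefficient of variation (CV) of the normalized counts was 35.4% in control and 23.3% in CNV d3.

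*Abca1* (chromosome 4, 53030787 to 53159895, minus strand), which encodes the transporter that loads cholesterol and phospholipid onto lipid-poor apolipoproteins, was measured at 1369, 1765 and 2866 normalized counts in control (lowest, median and highest sample) and at 3723, 5384 and 6419 in CNV d3. The lowest value in CNV d3 was that of replicate 1, and it was above all control values. The log2FC was 1.48 (SE 0.18, 95% interval 1.09 to 1.88, padj = 0.000133, exact permutation p = 0.00216), or 2.79-fold. This estimate lies just under the threshold for a DEG, and *Abca1* became a DEG when control replicate 2 (1.56), control replicate 4 (1.61), CNV d3 replicate 1 (1.58) or CNV d3 replicate 4 (1.51) was left out.

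*Abcg1* (chromosome 17, 31057675 to 31117988, plus strand), the gene for the transporter that hands cholesterol to mature lipoprotein particles, had the largest fold among the called genes with a mean of at least 500 in this set. Control samples ranged from 323 over a median of 532 to 847 normalized counts and CNV d3 samples from 1354 over 2188 to 2650.4, without overlap. The increase was 3.89-fold (log2FC = 1.96, SE 0.23, 95% interval 1.47 to 2.45, padj = 8.23e-05, exact permutation p = 0.00216). The ratio of *Abca1* to *Abcg1* within a sample did not differ significantly between the groups (log2 ratio of 1.81 ± 0.82 in control and 1.33 ± 0.23 in CNV d3, SD, n = 6, exact permutation p = 0.206, adjusted over 5 ratios 0.257). Without control replicate 1 the difference was -0.70 and passed (adjusted exact permutation p = 0.0325).

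RefSeq promoter windows, from 250 bases before to 50 after the start of a transcript, were at hand for 8 of the 10 genes, not for *Abcg1* and *Scarb1*. Shown are the windows of the 4 genes that were increased in every comparison with a single sample left out and have such a window, since these are promoters of genes that rose together. All are on the minus strand of GRCm38.p6 and written in their own direction, *Apoe* at chr7:19699139-19699438 (the window of the gene's outermost start among 3), *Abca1* at chr4:53159846-53160145, *Apobec1* at chr6:122602395-122602694 and *Plin2* at chr4:86670010-86670309. Capitals mark matches to 5 motifs, each searched on either strand. The first is a core of the liver X receptor element, written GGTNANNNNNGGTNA, where N stands for any base. The others are the GC box with the letters GGGCGG, the TATA box of many tissue-specific promoters with the letters TATAAA, the CCAAT box, which is its own spelling, and the E-box in the palindromic form CACGTG.
Apoe: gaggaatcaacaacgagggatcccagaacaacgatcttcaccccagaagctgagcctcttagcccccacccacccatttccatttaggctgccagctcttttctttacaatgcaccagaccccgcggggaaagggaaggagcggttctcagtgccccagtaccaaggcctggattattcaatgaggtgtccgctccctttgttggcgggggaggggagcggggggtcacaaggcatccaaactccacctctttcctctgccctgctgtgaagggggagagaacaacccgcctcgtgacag
Abca1: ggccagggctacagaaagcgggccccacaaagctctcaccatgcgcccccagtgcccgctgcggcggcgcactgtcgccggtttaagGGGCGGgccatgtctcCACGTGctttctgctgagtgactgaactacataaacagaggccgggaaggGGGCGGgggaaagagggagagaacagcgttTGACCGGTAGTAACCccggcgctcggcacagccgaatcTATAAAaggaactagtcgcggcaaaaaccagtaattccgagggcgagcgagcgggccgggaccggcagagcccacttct
Apobec1: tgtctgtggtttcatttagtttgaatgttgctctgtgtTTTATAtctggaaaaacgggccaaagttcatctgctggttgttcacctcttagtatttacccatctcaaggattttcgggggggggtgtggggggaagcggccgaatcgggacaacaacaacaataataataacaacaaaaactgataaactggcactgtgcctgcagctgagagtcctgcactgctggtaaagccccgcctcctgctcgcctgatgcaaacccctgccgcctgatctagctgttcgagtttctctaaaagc
Plin2: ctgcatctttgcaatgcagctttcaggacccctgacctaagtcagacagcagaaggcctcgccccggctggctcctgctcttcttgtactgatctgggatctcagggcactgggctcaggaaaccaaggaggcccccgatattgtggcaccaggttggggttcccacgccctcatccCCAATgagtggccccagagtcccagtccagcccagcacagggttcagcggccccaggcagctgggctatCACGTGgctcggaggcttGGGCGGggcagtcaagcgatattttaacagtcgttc

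The receptor element core was found in the *Abca1* window only among these 8 genes, 67 to 53 bases before the start on the strand opposite to the gene, and reads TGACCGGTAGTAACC in the line above. It was present in 0.718% of 32851 windows of the same length, and in 2 of the 9 genes with a window from a list of 14 liver X receptor targets, *Abca1* and *Srebf1*. The *Abca1* window also held GC boxes 163 and 97 bases, an E-box 147 bases and a TATA box 29 bases before the start. In *Plin2*, a CCAAT box began 73 bases and an E-box 4 bases before the start, with a GC box 14 bases after it, and in *Apobec1* a TATA box match on the opposite strand began 212 bases before. Over all windows, a GC box was found in 35.7%, a CCAAT box in 37.4%, a TATA box in 13.6% and an E-box in 7.15%. The *Apoe* window shown held no match, which says only that these letters are not in this window, and the window of another *Apoe* start, at chr7:19698572-19698871, held overlapping TATA box matches that began 100 and 96 bases before that start. A match is a description of the sequence, and binding was not measured.

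The liver X receptors are encoded by *Nr1h3* (LXR alpha, chromosome 2, 91184061 to 91202834, minus strand) and *Nr1h2* (LXR beta, chromosome 7, 44549616 to 44553951, minus strand). *Nr1h2* was the more abundant of the pair in every sample of both groups, also per kilobase of exon, with 848, 1035 and 1155 normalized counts in control (lowest, median and highest) and 822, 950.1 and 1178 in CNV d3. The groups overlapped over nearly their whole range. The log2FC of *Nr1h2* was -0.11 (95% interval -0.38 to 0.17, padj = 0.608, exact permutation p = 0.359).

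*Nr1h3* rested on 3 reads or fewer in 5 of the 6 controls, where 2 samples (replicates 4 and 6) had 0 reads, 3 samples had between 1.07 and 3.38 normalized counts and replicate 5 had 85.3. In CNV d3 the values were 12.5 at the lowest, 45.3 at the median and 57.7 at the highest, below control replicate 5 in every sample and above the other 5 controls in every sample. The groups thus overlapped through a single control sample. The log2FC was 3.26 (SE 1.02, 95% interval 1.07 to 5.45, padj = 0.0494), a 9.57-fold difference on the log2(normalized counts + 1) scale, with an exact permutation p of 0.0152. The size of this estimate rests on the handling of low counts, as edgeR and DESeq2 on the recovered reads both gave 1.34 (padj = 0.447 and 0.422) and a pseudocount of 5 gave 2.06 (padj = 0.0818). Without control replicate 5 the log2FC was 4.16 (padj = 0.00231), and without any 1 of the other 11 samples it was between 2.87 and 3.55 and did not pass (padj between 0.0633 and 0.108). The ratio of *Nr1h3* to *Nr1h2* was higher in CNV d3 by 3.36 on the log2 scale (exact permutation p = 0.0173, adjusted over 5 ratios 0.0289), and without control replicate 2, 4 or 6 this call was lost as well (adjusted p = 0.0505, differences 3.38, 2.98 and 2.98). In addition, 34 exon bases of *Nr1h3* overlap an exon of *Gm13783*, and reads in such bases are left out by default counting.

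**Figure D2:**
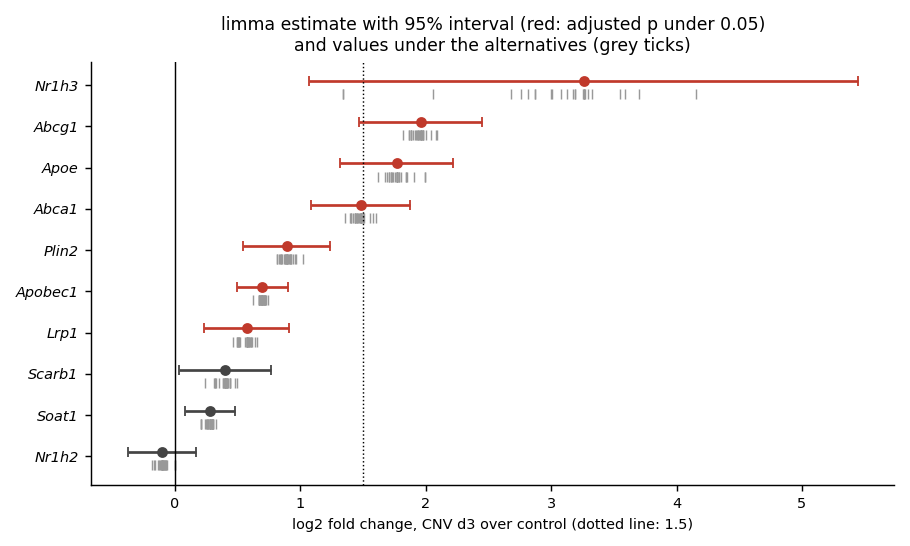
Log2FC of CNV d3 over control for each gene (points) with 95% intervals from limma (bars), red where the adjusted p was under 0.05, and the values under all alternatives as grey ticks. Nr1h3 had the widest interval, from 1.07 to 5.45, and its ticks ran from 1.34 to 4.16, whereas the ticks of Apoe stayed between 1.62 and 2.00.

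*Plin2* (chromosome 4, 86648386 to 86670060, minus strand), which encodes a coat protein of lipid droplets, was measured at 1199, 1541 and 1781 normalized counts in control (lowest, median and highest) and at 1746, 3079 and 3360.0 in CNV d3. Here, 5 of the 6 CNV d3 samples exceeded all controls, and replicate 4 lay within the control range. *Plin2* was increased 1.85-fold (log2FC = 0.89, SE 0.16, 95% interval 0.54 to 1.24, padj = 0.00203, exact permutation p = 0.00433). *Soat1* (chromosome 1, 156424525 to 156474331, minus strand), the gene for the enzyme that esterifies cholesterol, had 3401, 3746 and 4463 normalized counts in control and 4281, 4459 and 5375 in CNV d3. The smallest CNV d3 value of *Soat1* exceeded 5 of the 6 control values, and the CV in control was the lowest of the set (9.98%). With log2FC = 0.28 (95% interval 0.08 to 0.48, exact permutation p = 0.00866), *Soat1* did not pass the adjusted threshold (padj = 0.0606). It passed without control replicate 5 (0.32, padj = 0.0233) or CNV d3 replicate 4 (0.30, padj = 0.0473), and also with TMM normalization (padj = 0.0446), with DESeq2 (0.0121), with limma voom (0.0333) and after a filter on low values (0.0294).

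The balance between these transcripts was compared within samples, where the size factor cancels. The ratio of *Plin2* to *Soat1* was higher in CNV d3 by 0.61 on the log2 scale (-1.35 ± 0.27 in control and -0.74 ± 0.32 in CNV d3, SD, n = 6, exact permutation p = 0.00866, adjusted over 5 ratios 0.0216). The ratio of *Abca1* to *Soat1* was higher by 1.20 (-1.03 ± 0.49 and 0.17 ± 0.29, exact permutation p = 0.00216, adjusted 0.0108). For this ratio, the highest control (-0.35) lay below the lowest CNV d3 sample (-0.31), so that the groups did not overlap.

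*Lrp1* (chromosome 10, 127538161 to 127621148, minus strand) encodes a large endocytic receptor for apolipoprotein E particles. Its level was 6080.3, 9990.1 and 11253 normalized counts in control (lowest, median and highest) and 10043, 13135 and 17001 in CNV d3. A single CNV d3 sample, replicate 5, lay below the highest control. *Lrp1* was increased 1.49-fold (log2FC = 0.57, SE 0.16, 95% interval 0.23 to 0.91, padj = 0.0264, exact permutation p = 0.00866). This call held without control replicate 4 or 6 or CNV d3 replicate 5 and was lost without any 1 of the other 9 samples, where the log2FC was between 0.46 and 0.61 and padj between 0.0549 and 0.105.

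*Scarb1* (chromosome 5, 125277087 to 125341094, minus strand), whose product SR-BI exchanges cholesterol with high-density lipoproteins, was measured at 1530.2, 2261 and 2878 normalized counts in control and at 2097, 2632 and 3633 in CNV d3. Only 2 CNV d3 samples (replicates 3 and 6) were above the highest control. The difference did not pass (log2FC = 0.40, 95% interval 0.04 to 0.77, padj = 0.151, exact permutation p = 0.0736). The ratio of *Lrp1* to *Scarb1* within samples differed by 0.17 on the log2 scale, less than its SD of 0.21 in control and 0.31 in CNV d3 (exact permutation p = 0.286, adjusted 0.286).

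*Apobec1* (chromosome 6, 122577792 to 122602444, minus strand), the gene for the cytidine deaminase that edits the messenger RNA of apolipoprotein B, varied little within the groups. Control samples had 1689, 1803 and 2181 normalized counts (lowest, median and highest) and CNV d3 samples had 2809, 3037 and 3285, with a CV of 11.2% and 6.67%. Every CNV d3 sample was above every control. The increase was 1.62-fold (log2FC = 0.70, SE 0.10, 95% interval 0.49 to 0.90, padj = 0.000260, exact permutation p = 0.00216).

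Per kilobase of exon, the mean level in control fell in the order *Apoe* (9759 normalized counts per kilobase), *Apobec1* (696), *Lrp1* (517), *Plin2* (430.2), *Soat1* (391), *Nr1h2* (309.8), *Scarb1* (253), *Abca1* (187), *Abcg1* (76.6) and *Nr1h3* (6.15). In CNV d3 the order was *Apoe* (32248), *Apobec1* (1124), *Plin2* (808), *Lrp1* (763), *Abca1* (510.1), *Soat1* (475), *Scarb1* (331), *Abcg1* (290.0), *Nr1h2* (289) and *Nr1h3* (15.7). *Abca1* thus moved from below *Nr1h2* and *Scarb1* to a level next to *Soat1*, and *Abcg1* moved to that of *Nr1h2*. Neighbours in the CNV d3 order whose mean log2 difference within a sample was below its SD over the 6 samples were *Plin2* and *Lrp1*, *Abca1* and *Soat1*, *Scarb1* and *Abcg1*, and *Abcg1* and *Nr1h2*. By the same measure, the neighbours that did not differ beyond their spread in control were *Lrp1* and *Plin2*, *Plin2* and *Soat1*, *Nr1h2* and *Scarb1*, and *Scarb1* and *Abca1*. The other neighbours of the CNV d3 order differed in the same direction in 6 of 6 samples (exact paired permutation test, p = 0.0312, the smallest possible with 6 pairs, adjusted over 9 pairs 0.0563), and no pair passed after adjustment.

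**Figure D3:**
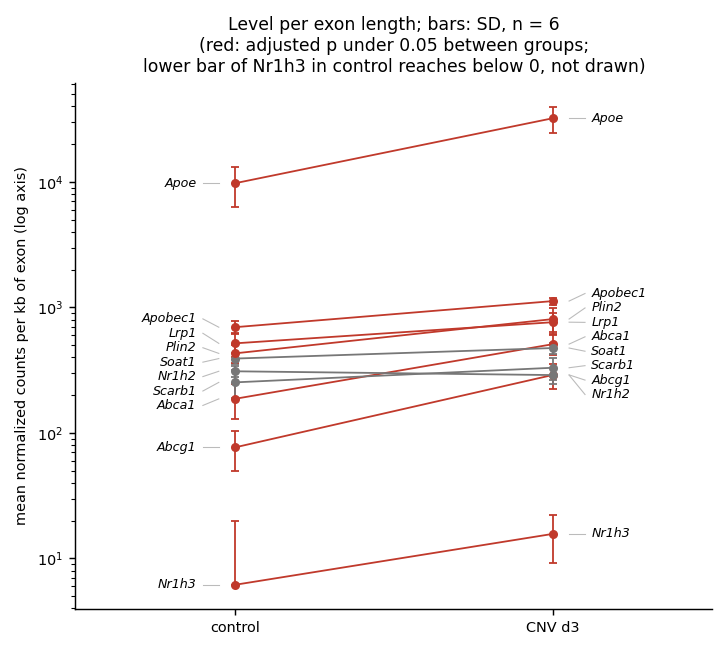
Mean normalized counts per kilobase of exon (log y axis) of the 10 genes in control and CNV d3, with bars for SD over 6 samples and red lines for genes with an adjusted p under 0.05 between the groups. Apoe stood more than 10-fold above the other genes in both groups, and Abca1 and Abcg1 moved up through the order.

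Markers of monocytes differed widely among the CNV d3 samples, so the genes were compared with them and with the sex-linked transcripts. In CNV d3, most of each monocyte sum was due to *Fn1*, which the study reports as increased in CNV-associated microglia. Replicates 1 and 4 had the lowest sums (4295 and 4920, of which *Fn1* made up 3763 and 4164). These 2 samples had 66878 and 51437 normalized counts of *Apoe* against a control maximum of 32299, 3723 and 4758 of *Abca1* against 2866, 1354 and 1771 of *Abcg1* against 847, and 2809 and 2824 of *Apobec1* against 2181. *Lrp1* was at 11920.2 and 15870.0 against 11253. For *Plin2*, replicate 1 (2520.0) but not replicate 4 (1746) exceeded the control maximum of 1781. When the 2 samples with the highest monocyte sums were left out (replicates 3 and 6, an alternative chosen after seeing the data), *Apoe* (log2FC = 1.80, padj = 0.00598), *Abca1* (1.35, 0.00842), *Abcg1* (1.92, 0.00619), *Apobec1* (0.68, 0.00308) and *Plin2* (0.82, 0.0433) passed, whereas *Lrp1* (0.50, 0.203) and *Nr1h3* (3.25, 0.185) did not.

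The same 5 genes passed when only the 3 CNV d3 samples with 0 reads of *Ddx3y* were compared with the controls, also an alternative chosen after seeing the data. In this comparison, *Apoe* had a log2FC of 2.00 (padj = 0.00911), *Abca1* of 1.43 (0.0255), *Abcg1* of 1.87 (0.0177), *Apobec1* of 0.69 (0.00832) and *Plin2* of 0.96 (0.0114). *Lrp1* (0.51, padj = 0.213) and *Nr1h3* (3.005, padj = 0.331) did not pass with these fewer samples, with estimates near the 0.57 and 3.26 of all samples. Within CNV d3, *Apoe* was at 79709 ± 13241 normalized counts in the samples without and 58182 ± 11032 in those with *Ddx3y* reads (SD, n = 3, exact permutation p = 0.2, where 0.1 is the smallest possible), and the other 9 genes gave exact permutation p between 0.2 and 1.

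**Figure D4:**
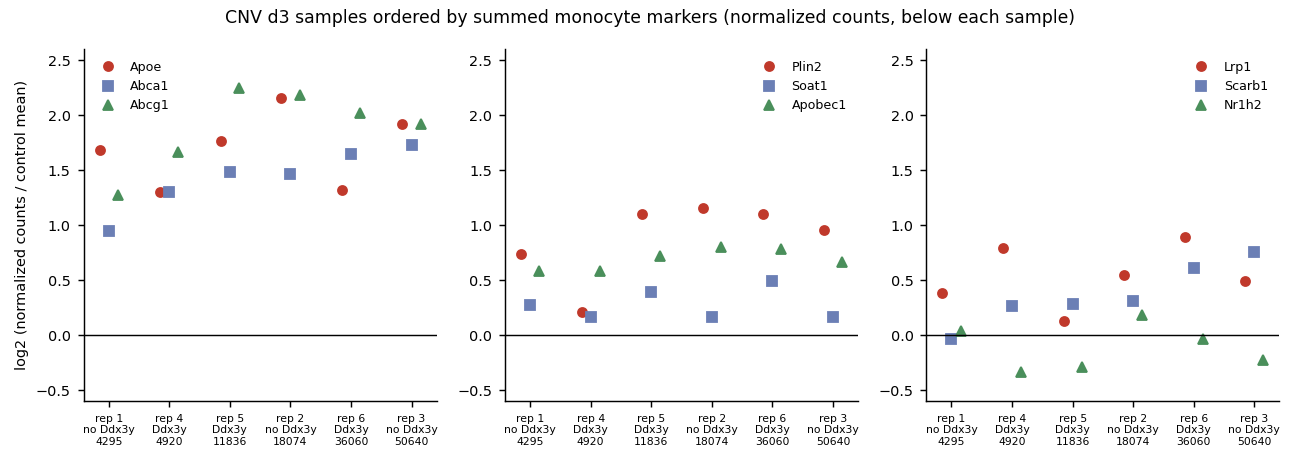
Log2 ratio of each CNV d3 sample to the control mean for 9 genes (Nr1h3 is left out because of its low control counts), with samples placed from left to right by their summed monocyte markers, given in normalized counts under each sample together with the presence of Ddx3y reads. Apoe, Abca1, Abcg1, Apobec1 and Plin2 were above 0 in all 6 samples, including replicates 1 and 4 with the lowest sums of 4295 and 4920. Most of each sum was due to Fn1.

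To place the 10 genes in their pathway, lists of lipid genes were counted with the same test. The lists include genes of the set, and values are mean ± SD of normalized counts over 6 samples, control first. In the list of apolipoproteins and lipoprotein remodelling, 6 of the 14 genes in the table were increased and 0 decreased, against 8.29% and 4.57% of all genes, with a median log2FC of 1.57 against 0.15 over all genes. Besides *Apoe*, these were *Pltp*, the phospholipid transfer protein (64.3 ± 46.7 to 280.4 ± 94.8 normalized counts, log2FC = 2.39, padj = 0.00374), *Clu*, the gene of clusterin or apolipoprotein J (21.8 ± 33.4 to 80.8 ± 32.9, log2FC = 4.07, padj = 0.0293), *Abca7* (851 ± 422 to 1750.5 ± 555, log2FC = 1.16, padj = 0.0236), and *Apoa2* and *Apod*, named after their values were seen, which had 0 reads in all controls and at most 11.6 and 16.3 normalized counts in CNV d3. *Clu* had 0 reads in 3 controls but reached 68.0 normalized counts in control, against 48.5 to 140 in CNV d3. Its groups thus overlapped, and the size of its log2FC rests on the controls at 0.

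Among the liver X receptor targets, 5 of 13 genes were increased and 2 decreased, with a median log2FC of 0.23, against 18.6% increased and 12.7% decreased among the genes with a mean of at least 500. *Scd2*, a fatty acid desaturase, was increased together with *Apoe*, *Abca1*, *Abcg1* and *Pltp* (824 ± 281 to 1775 ± 581 normalized counts, log2FC = 1.11, padj = 0.00802). In contrast, *Mertk*, a receptor for the uptake of dying cells (14594 ± 1539.7 to 10413 ± 2025, log2FC = -0.50, padj = 0.0128), and *Lpcat3*, which remodels phospholipids (5625 ± 558 to 4154 ± 374, log2FC = -0.44, padj = 0.00399), were decreased. *Srebf1* (log2FC = -0.15, padj = 0.653) and *Mylip* (-0.14, padj = 0.538), named here after their values were seen, were among the 6 genes that did not pass. With 5 genes increased and 2 decreased, the called targets did not all move in the same direction.

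Among partner genes of the nuclear receptors, the coactivator *Ncoa1* was increased (591 ± 277 to 1270.5 ± 285, log2FC = 1.20, padj = 0.00971). *Nrip1*, which encodes a corepressor, was decreased from 11530.3 ± 1743 to 5873 ± 777 normalized counts (log2FC = -0.97, padj = 0.000103).

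Of the other ABC family genes in the list of sterol transporters, *Abca7* was increased and *Abca9* (log2FC = -0.81, padj = 0.00494) and *Abcg3* (-0.95, padj = 0.0387) were decreased. Transport by the products of these genes was not measured. With *Abca1* and *Abcg1* counted, 3 of 12 genes rose and 2 fell, against 18.6% and 12.7% of genes with a mean of at least 500. Over all genes, 8.29% rose and 4.57% fell. In the family of the LDL receptor, 4 of 17 genes were increased and 0 decreased, with a median log2FC of 0.57. The share increased was 8.29% of all genes and 18.6% of those with a mean of at least 500. Only 12 of the 17 genes had a mean of at least 10 normalized counts, so that neither share is a matched background for this list. *Lrpap1*, a chaperone that binds LRP1 and its relatives in the secretory pathway, rose with *Lrp1* itself, from 5423 ± 238 to 7143 ± 695 normalized counts (log2FC = 0.39, padj = 0.00330). The sorting receptor *Sorl1* (1.20, padj = 0.00180) and *Lrp6*, a coreceptor for Wnt proteins (0.73, padj = 0.00480), were the other two.

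The largest differences among the called genes of the lipid lists were found among receptors for modified lipoproteins and the oxysterol enzymes. *Cd36* rose from 82.0 ± 35.6 to 2651 ± 956 normalized counts (log2FC = 5.03, padj = 1.04e-06) and *Msr1* from 55.4 ± 34.1 to 877 ± 212 (log2FC = 4.76, padj = 0.00206), while *Stab1* rose less (0.59, padj = 0.0107) and *Trem2*, a lipid-sensing receptor, fell from 10109 ± 998 to 6051 ± 1156 (log2FC = -0.76, padj = 0.000741). In this list of 10 genes, which includes *Scarb1*, 3 were increased and 1 decreased, with a median log2FC of 0.44. Among all genes, 8.29% were increased and 4.57% decreased, and among those with a mean of at least 500, 18.6% and 12.7%. *Ch25h*, whose enzyme makes 25-hydroxycholesterol, was the only 1 of 5 oxysterol genes to change, from 31.0 ± 27.1 to 1356 ± 422 normalized counts (log2FC = 6.68, padj = 0.000480). These changes were seen in the same samples as the higher monocyte markers, and the part of other cells in them was not tested.

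Storage, lysosomal release and synthesis of cholesterol were counted in the same way, against 12.9% of all genes called in either direction. Of 20 genes of cholesterol esters and lipid droplets, 2 were increased and 0 decreased, with a median log2FC of -0.05, and the second gene, *Cideb*, had at most 6.65 normalized counts. In lysosomal egress and sterol transfer, *Gramd1a* was increased (0.59, padj = 0.0276) and *Npc1*, the lysosomal cholesterol exporter, was decreased from 3435 ± 337 to 2301 ± 191 (log2FC = -0.58, padj = 0.000815), while the other 11 of the 13 genes did not pass (median 0.15). In cholesterol synthesis, 1 of 22 genes, *Msmo1*, was decreased (-0.72, padj = 0.00916) and 0 were increased, with a median of 0.13. Of the relatives and partners of *Apobec1*, *Apobec3*, which restricts retroviruses, rose with it (2843 ± 517 to 4116 ± 593, log2FC = 0.55, padj = 0.0194), and the other 4 of 6 genes did not pass (median of the list 0.44).

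**Figure D5:**
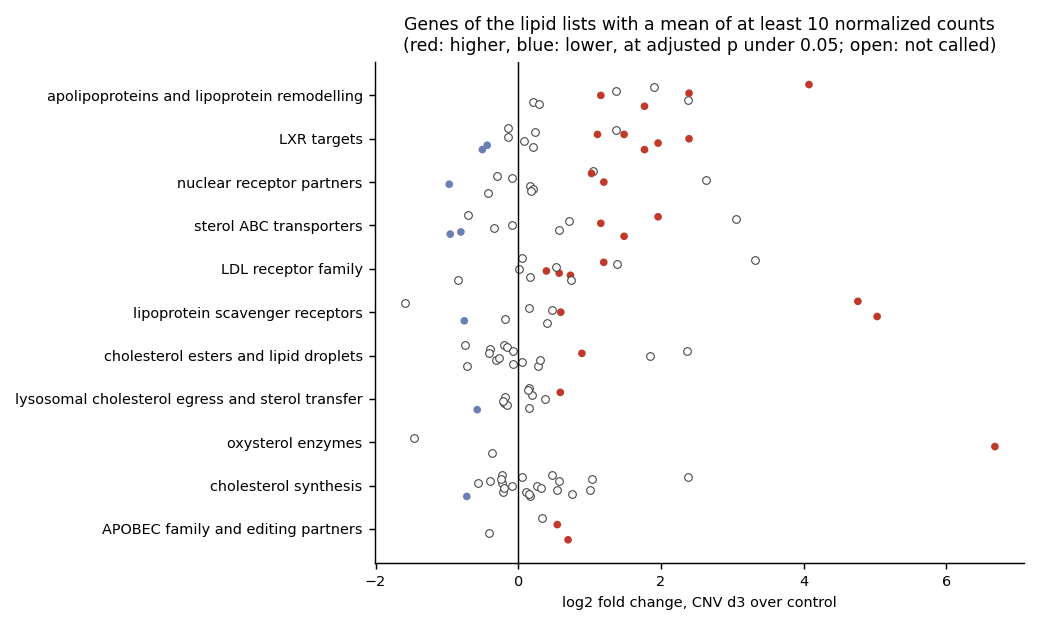
Log2FC of the genes of 11 lipid lists with a mean of at least 10 normalized counts, red where increased, blue where decreased and open where the adjusted p was 0.05 or above (1 point per gene, vertical spread without meaning). Ch25h (6.68), Cd36 (5.03) and Msr1 (4.76) lay farthest to the right, and most genes of cholesterol synthesis and lipid droplets were open.

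Finally, the genes with the profile nearest to that of *Apoe* were sought among 7835 genes with at least 100 normalized counts in every sample, by the root mean square difference of log2 values centred on the mean over the 12 samples. The nearest were *Tpm4*, a tropomyosin (0.32 log2 units), *Rrm1*, a subunit of ribonucleotide reductase (0.33), *Mcm2*, a subunit of the replicative helicase (0.35), *Cdkn2d*, an inhibitor of cyclin-dependent kinases (0.37), and *Abca1* (0.37) as the fifth. Their log2FC values were 1.72, 2.13, 1.98, 1.47 and 1.48, near the 1.77 of *Apoe*, and the 12 samples over which likeness was measured include that difference between the groups. Among the other genes of the set, *Plin2* was in place 109, *Abcg1* in place 384 and *Apobec1* in place 386.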

How the data were processed

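Total RNA of sorted retinal microglia was amplified to full-length cDNA and sequenced as single reads by the authors. Per the labels and methods, the authors checked reads with FastQC 0.72, mapped them with STAR 2.7.2b to GRCm38.p6 with Gencode annotation, merged flow cells, ran featureCounts 1.6.4 at default settings, which use no strand, to count reads per gene, and removed genes without reads. The deposited signal is the read count divided by the DESeq2 1.22.2 size factor of the sample (R 3.5.3), and 100% of the values were whole reads times a constant within a tolerance of 0.01 reads, so reads could be recovered. The authors also deposited group means, fold changes and adjusted p-values from DESeq2, which were not used. The number of sample columns that matched no label was 0.

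Groups came from the sample labels, and parts of a sample were counted as 1 sample. All replicate pairs differed beyond counting noise (the lowest chi-square divided by its degrees of freedom was 32.5, a measure of counting error only). The 10 genes, the gene lists and the tests were chosen with earlier results of these data known. The main comparison was limma 3.58.1 (R 4.3.3) with a mean-variance trend on log2(normalized counts + 1) over 27299 genes without a filter, with Benjamini-Hochberg adjustment, and a gene was called at an adjusted p under 0.05. Fold changes are on this scale. Single genes and log2 ratios were compared by two-sided exact permutation over 924 labellings. The code was tested on simulated data. Alternatives were edgeR 4.0.16, DESeq2 1.42.0 and limma voom on the recovered reads, TMM and upper quartile normalization, pseudocounts of 0.5 and 5, no variance trend, a filter of 10 normalized counts in 6 samples, thinning to the shallowest sample, the replicate number as a block, *Ddx3y* as a covariate and leaving out each sample.

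Genes named are the 10 genes, up to 4 called genes per list and direction with the highest mean, and the 5 profiles nearest to *Apoe*. Coordinates and exon lengths were taken from Gencode M21 on GRCm38, the build of the authors' M25 annotation, for 27238 genes matched by Ensembl identifier. Promoter windows are from RefSeq. Some genes of the lists are not reported here.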

Additional observations from a re-analysis of the deposited data

Results flagged for a closer look

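*Nr1h3* had 85.3 normalized counts in control replicate 5, far from the other 5 control samples at 0 to 3.38. The gap between this sample and its nearest neighbour made up 0.96 of the range of the group, which is above the Dixon limit for 6 samples. Chance flags about 1 in 20 groups, and the values of both groups were examined for 10 genes and 5 ratios.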

How the results depend on the processing

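*Apoe*, *Abca1*, *Abcg1*, *Apobec1* and *Plin2* kept their direction and stayed called in all 26 alternatives, 12 of which left out a single sample and 2 of which, the comparisons with 3 or 4 CNV d3 samples, were chosen after seeing the data. *Lrp1* stayed called in 12 and *Nr1h3* in 5 of the 26, *Soat1* became called in 6, and *Scarb1* was called in 0. *Lrp1* was not called with upper quartile normalization (0.50, padj = 0.0544), without a variance trend (0.57, padj = 0.0883) or with *Ddx3y* as a covariate (0.51, padj = 0.160). The log2FC of *Nr1h2* turned to 0.0034 with the *Ddx3y* covariate and to 0.0029 in the CNV d3 samples without *Ddx3y* reads, in both cases without a call. The number of genes of the set called ranged from 5 to 8, and that of DEG from 2 to 4, the 4 with a threshold of 1.

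Of all genes, 3511 were called, against 2090 with the *Ddx3y* covariate, 1562 with the 3 CNV d3 samples without *Ddx3y* reads and 1812 without the 2 samples highest in monocyte markers, the last 2 being fits with fewer samples. Leaving out single samples gave 2759 to 3774. The share of increased genes among those called was 64.5%, and 55.8% with upper quartile normalization (1956 increased, 1549 decreased) and 53.5% with DESeq2 (2493 and 2170), and the cause was not tested. A pseudocount of 1 placed the median of all genes at 0.15, and DESeq2 at -0.01.

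The groups share replicate numbers, but samples with the same number did not deviate together (correlation of -0.053 to 0.071 over 9713 genes, with 1 of 6 samples closest to its own number). With the replicate block, 6 of the 10 genes were called, as *Nr1h3* was lost (padj = 0.0659), and 2860 genes in all. In the paired test with the block, the ratios of *Nr1h3* to *Nr1h2* (3.36), *Plin2* to *Soat1* (0.61) and *Abca1* to *Soat1* (1.20) no longer passed (adjusted exact p = 0.104), where 6 pairs allow no raw p below 0.0312. Without single samples, the difference in the log2 ratio was -0.70 to -0.21 for *Abca1* to *Abcg1* and 2.98 to 4.24 for *Nr1h3* to *Nr1h2*. Depth limits *Nr1h3* most, since 5 of its 6 control values rest on 3 reads or fewer.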
